A study of Mus musculus with 42 samples.

Results

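The genes described are those named for pore-forming and auxiliary subunits of voltage-gated sodium and calcium channels. They are the genes measured by a probe set annotated to a single gene whose symbol begins with Cacn, or with Scn, digits and then a or b. Where several probe sets measured a gene, the one with the highest mean over all 42 arrays stood for it. This gave 35 genes of 18193 genes measured, 11 for sodium channel subunits and 24 for calcium channel subunits. The sodium channel genes were 8 alpha subunits (Scn1a, Scn2a, Scn3a, Scn7a, Scn8a, Scn9a, Scn10a and Scn11a) and 3 beta subunits (Scn2b, Scn3b and Scn4b). The calcium channel genes were 9 alpha1 subunits (Cacna1a to Cacna1h and Cacna1s), 4 alpha2delta subunits (Cacna2d1 to Cacna2d4), 3 beta subunits (Cacnb1, Cacnb2 and Cacnb4) and 8 gamma subunits (Cacng1 to Cacng8).

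The arrays carried RNA from striatum or hippocampus of C57BL6 mice. Some mice were wild type (WT), others carry the label of a knockout of the phosphodiesterase PDE10A (KO), and all had been given vehicle (Veh) or a PDE10 inhibitor (PDE10i). In striatum there were 5 arrays of WT mice on vehicle, 6 of WT mice on inhibitor, 5 of KO mice on vehicle and 4 of KO mice on inhibitor, and the corresponding numbers in hippocampus were 6, 6, 5 and 5. For the age of the mice, the compound, dose and interval before dissection, and the deleted part of Pde10a, no value is given in the sources used here. Whether the arrays of a group stem from different animals is not in the labels, so a p-value reflects the spread of these samples alone and that spread may be technical.

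A voltage-gated sodium channel is a large alpha subunit that forms the pore and opens on depolarisation to drive the action potential, joined by beta subunits that shift gating and anchor the channel. A voltage-gated calcium channel has an alpha1 pore, a cytoplasmic beta subunit that takes it to the membrane, and an extracellular alpha2delta subunit that raises its density at synapses. The Cacng genes were named for a gamma subunit of the muscle channel, but several of their proteins (those of Cacng2, Cacng3, Cacng4 and Cacng8, and also Cacng5 and Cacng7) are known mainly as TARPs, which escort AMPA-type glutamate receptors to the synapse. In striatum most neurons are GABAergic projection neurons in which PDE10A, the enzyme that breaks down cAMP and cGMP, is abundant, and cAMP-dependent kinase phosphorylates several of these channels. Hippocampal pyramidal and granule cells are glutamatergic.

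The labels were checked on the values. The targeted gene, Pde10a, was not lower in the arrays labelled KO: its mean log2 signal in striatum was 12.32 ± 0.26 in WT vehicle (SD, n = 5) and 12.35 ± 0.22 in KO vehicle (SD, n = 5), and in hippocampus 9.0 ± 0.04 (SD, n = 6) and 9.47 ± 0.45 (SD, n = 5). Its probe set is not known to lie in the deleted part, so it does not test the labels. Chromosome 17 carries Pde10a, and a score was made from 15 of its other genes, those with the smallest p between the genotype labels in the other region. It was scaled so that the WT vehicle median is 0 and the KO inhibitor median is 1. By this score 8 arrays fell past 0.5 towards the genotype that their label does not name. In striatum they were WT inhibitor replicates 13, 14 and 15 (scores 0.59, 0.79 and 0.54) and KO vehicle replicate 25 (0.098). Replicates 13 and 15 thus lie close to the cut, and the hippocampal WT inhibitor arrays of the same numbers scored 0.23 and 0.02. In hippocampus they were WT inhibitor replicates 12 and 14 and KO vehicle replicates 25 and 26. The number of channel genes past the threshold is given with and without these doubted arrays, and so is each regional difference whose call they changed or that they moved by over 1.5 times. KO means here the libraries labelled KO. Of the markers of tissue, 12 of 12 genes of striatal projection neurons were higher in striatum of WT vehicle arrays and 8 of 12 of hippocampal and cortical glutamatergic neurons were lower. Of markers of other cells, oligodendrocytes had 8 of 9 higher, interneurons 5 higher and 3 lower of 11, astrocytes 1 higher and 4 lower of 10, microglia 3 higher of 10, oligodendrocyte precursors 1 higher and 1 lower of 6, and thalamic neurons 1 lower of 7. None passed among 9 endothelial and 8 choroid plexus genes.

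The channel genes were measured over the whole range of the arrays. In 26 of the 35 genes the mean exceeded the median of all probe sets, 6.09 on the log2 scale, in at least 1 group. The other 9 lay under it in all 8 groups: Scn7a, Scn9a, Scn10a, Scn11a, Cacna1f, Cacna1s, Cacna2d4, Cacng1 and Cacng6. Several of these are known from peripheral sensory neurons (Scn9a, Scn10a, Scn11a), skeletal muscle (Cacna1s, Cacng1) or retina (Cacna1f, Cacna2d4). Differences in such dim probe sets are given as values, since background makes up most of their signal.

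The first comparison asked where in the 2 regions the channel genes were expressed. In WT vehicle arrays 19 of the 35 genes passed an adjusted p of 0.05 (limma, Benjamini-Hochberg over 18193 genes), 10 higher in striatum and 9 higher in hippocampus. The regions differ widely, and 33.9% of all genes passed the same test, 15.9% higher and 17.9% lower in striatum. The median size of the difference was 0.26 on the log2 scale over the 35 genes and 0.14 over all genes. In the other pairs of groups 21 genes passed in WT inhibitor arrays (13 higher, 8 lower, against 35.6% of all genes), 18 in KO vehicle arrays (10 higher, 8 lower, against 27.3%) and 15 in KO inhibitor arrays (9 higher, 6 lower, against 26.1%). In all 4 pairs 14 genes passed in 1 direction, whereas 17.5% of all genes did. Of them 8 were higher in striatum (Scn4b, Scn2b, Scn3a, Cacng4, Cacna2d2, Cacna2d3, Cacnb4 and Cacnb1; 7.34% of all genes) and 6 were lower (Scn3b, Scn8a, Cacna1a, Cacna1g, Cacna2d1 and Cacng8; 10.1% of all genes). A further 10 passed in 1 to 3 pairs, 11 in no pair, and 0 passed in opposite directions. The shares of all genes were not computed for these counts, so they do not set the channel genes apart. Without the doubted arrays the counts were 19, 18, 15 and 15 genes, in the same order of pairs, against 34.4%, 29.1%, 20.1% and 26.8% of all genes. Then 13 of the 14 genes passed in all 4 pairs, 7 higher (5.87% of all genes) and 6 lower (7.54%), the exception being Cacnb1. In bulk tissue, fewer cells of a type and less RNA per cell cannot be told apart.

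**Figure D1:**
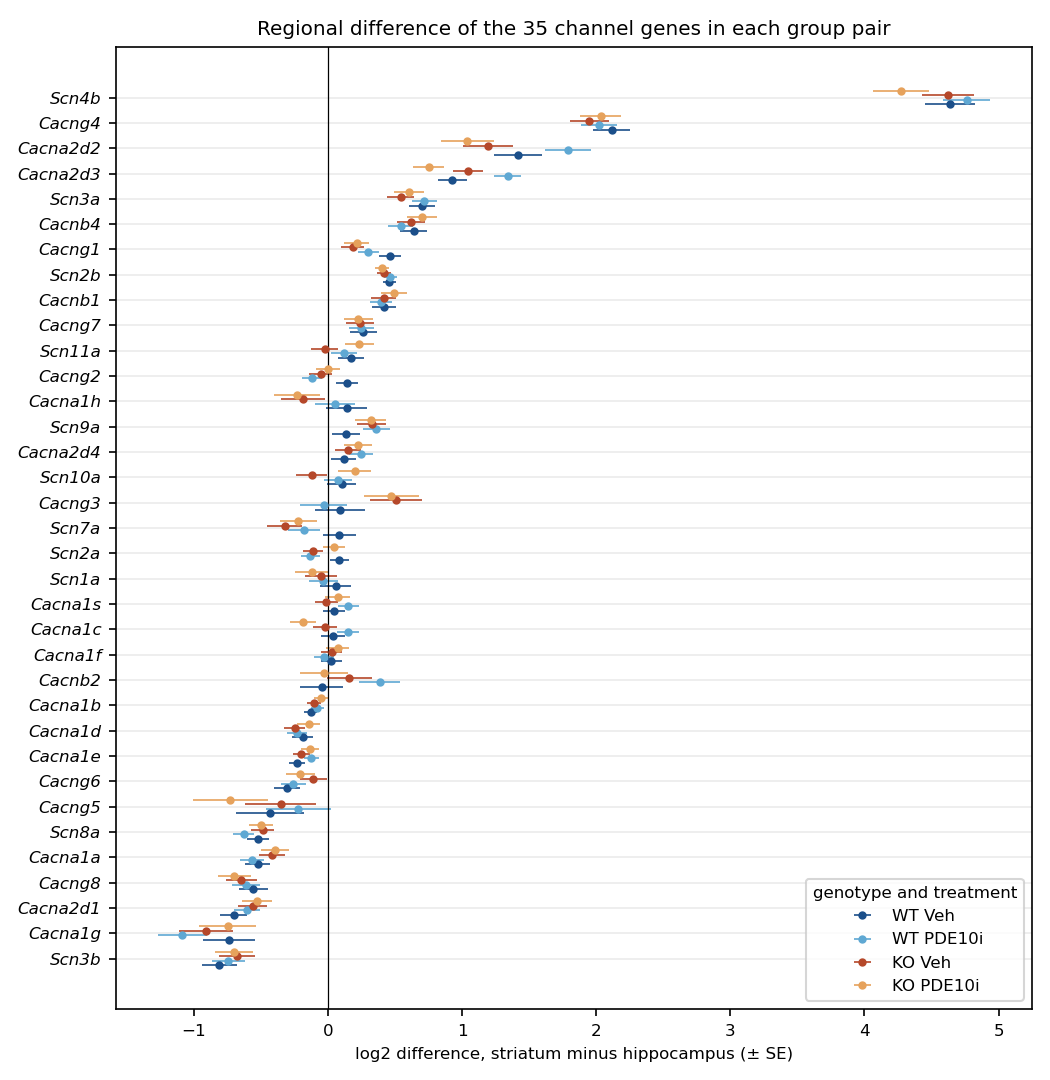
The log2 difference of each of the 35 channel genes (rows), striatum minus hippocampus, is plotted with its SE for the 4 pairs of groups (colours). Scn4b lies apart at 4.27 to 4.76, Cacng4, Cacna2d2 and Cacna2d3 follow, and Scn3b and Cacna1g lie at the lower end.

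Scn4b, which encodes the sodium channel beta4 subunit, known for resurgent sodium current, had the largest difference of the 35 genes. On the 5 WT vehicle arrays of striatum its log2 signal was 12.46, 12.51, 12.90, 12.65 and 12.44. In hippocampus the lowest, median and highest of 6 arrays were 7.50, 7.98 and 8.35. Every striatal array stood above every hippocampal array by over 4 log2 units. The difference was 4.64 ± 0.19 (SE), or 24.9-fold (adjusted p = 3.93e-22), and over the 4 pairs it ranged from 4.27 to 4.76, or 19.3-fold to 27.1-fold. The lowest value was in KO inhibitor arrays, whose striatal signals were 11.53, 12.37, 12.45 and 12.04.

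The beta2 gene, Scn2b, moved in the same direction but far less. Its signals in WT vehicle striatum were 11.63, 11.73, 11.79, 11.83 and 11.60, against a lowest, median and highest of 11.20, 11.26 and 11.33 in hippocampus. The groups did not overlap, and the spread within each was narrow: the difference was 0.46 ± 0.05 (1.38-fold, adjusted p = 6.43e-10), and it stayed between 0.41 and 0.47 over the 4 pairs. Scn3b, the gene of the beta3 subunit, went the other way. It read 10.33, 10.60, 10.63, 10.59 and 10.23 in striatum and 11.08, 11.28 and 11.43 (lowest, median, highest) in hippocampus. All striatal arrays lay below all hippocampal arrays, a difference of -0.81 ± 0.13 (1.75-fold lower, adjusted p = 2.97e-06). Its other probe set gave -1.73 ± 0.31. The 3 beta subunit genes thus included both the largest rise and the largest fall of the 35 genes in WT vehicle arrays.

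Scn4b and Scn2b are neighbours on chromosome 9. Their transcription starts lie 20748 bases apart on the same strand in RefSeq (GRCm38.p6), with 0 other genes of that table starting between them. Their start regions are shown because both genes were higher in striatum but by very different amounts. The windows run from 250 bases before to 50 bases after the start, at chr9:45138374-45138673 (plus strand) and chr9:45117626-45117925 (plus strand). Nothing is in capitals, since neither window holds any of the motifs searched (listed with the alpha2delta genes).

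Scn4b: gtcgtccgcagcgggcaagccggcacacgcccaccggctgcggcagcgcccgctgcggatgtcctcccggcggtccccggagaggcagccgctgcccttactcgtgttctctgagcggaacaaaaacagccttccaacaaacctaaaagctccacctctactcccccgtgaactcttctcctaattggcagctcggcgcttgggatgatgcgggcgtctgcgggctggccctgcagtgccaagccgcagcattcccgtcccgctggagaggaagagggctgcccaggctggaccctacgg
Scn2b: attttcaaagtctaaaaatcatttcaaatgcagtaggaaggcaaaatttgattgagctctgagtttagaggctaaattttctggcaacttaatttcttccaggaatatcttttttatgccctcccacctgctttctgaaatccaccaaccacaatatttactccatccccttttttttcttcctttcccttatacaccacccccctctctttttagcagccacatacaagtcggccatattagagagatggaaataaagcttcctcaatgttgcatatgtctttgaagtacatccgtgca

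The Scn4b window holds 66.3% G or C and 26 CpG dinucleotides, and the Scn2b window 38.3% and 2. Over all 32851 RefSeq windows of this length the medians are 52.7% and 7, so the neighbours lie on opposite sides of both.

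Among sodium channel alpha subunits, 1 of 8 rose and 1 of 8 fell in WT vehicle striatum relative to hippocampus, where 15.9% of all genes were higher and 17.9% lower. Scn3a encodes Nav1.3, a channel best known from developing brain. It was measured at 9.33, 9.10, 9.30, 9.32 and 8.83 in striatum and between 8.38 and 8.57 in hippocampus (median 8.48). No striatal array reached down to the hippocampal range, and the difference was 0.70 ± 0.10 (1.63-fold, adjusted p = 3.42e-07). The second Scn3a probe set was dim and gave 0.13 ± 0.09. Scn8a encodes Nav1.6, the main channel of the mature axon initial segment and nodes. Its striatal values were 10.91, 10.83, 10.66, 10.47 and 10.85, all under the hippocampal range of 11.18 to 11.38 (median 11.26). The difference was -0.52 ± 0.08 (1.44-fold lower, adjusted p = 2.01e-06), and 3 of the other 4 Scn8a probe sets passed in the same direction, at -0.49, -0.62 and -1.04. Scn1a and Scn2a, which encode Nav1.1 and Nav1.2, differed by 0.06 ± 0.11 and 0.09 ± 0.07 and passed in no pair with all arrays. In WT inhibitor arrays Scn2a was at -0.13 ± 0.07 (adjusted p = 0.15), and at -0.26 ± 0.08 without the doubted ones, where it passed (adjusted p = 0.0171). Of the dim alpha genes, Scn9a passed as higher in striatum in 3 pairs (0.32 to 0.36) and at 0.13 not in WT vehicle arrays. When the doubted arrays were left out, its difference in WT inhibitor arrays was 0.14 and did not pass (adjusted p = 0.439), and in KO vehicle arrays it was 0.50 (adjusted p = 0.00148). Its signal stayed between 4.40 and 5.34 on all arrays.

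Of the 9 alpha1 genes, which encode the calcium channel pores, 4 were lower in WT vehicle striatum and 0 higher, where 17.9% and 15.9% of all genes were. Of the 9, 3 were lower in WT inhibitor arrays, 4 in KO vehicle arrays and 2 in KO inhibitor arrays. In these pairs 0 were higher. Of all genes 17.2%, 14.8% and 15.5% were lower there, in the same order, and 18.4%, 12.5% and 10.6% higher. Cacna1g, for the T-type channel Cav3.1, gave 7.42, 7.51, 6.92, 7.08 and 7.52 in striatum and 7.79, 7.94 and 8.37 (lowest, median, highest) in hippocampus. The ranges did not overlap but the arrays were spread widely, and the difference was -0.73 ± 0.19 (1.66-fold lower, adjusted p = 0.0028). It was -1.08 ± 0.18 in WT inhibitor arrays. In KO inhibitor arrays, where the 4 striatal arrays read 8.04, 6.46, 6.71 and 7.74, it was -0.75 and rested on few arrays: without striatal replicate 35 it was -0.49 (adjusted p = 0.106) and without replicate 37 it was -0.57 (adjusted p = 0.0622).

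Cacna1a, for the P/Q-type channel Cav2.1 of fast synapses, read 7.81, 7.76, 7.57, 7.74 and 7.80 in striatum and 8.07 to 8.60 in hippocampus (median 8.19). Again no arrays overlapped, at -0.52 ± 0.09 (1.44-fold lower, adjusted p = 2.26e-05). A second Cacna1a probe set passed at -0.20 ± 0.08 (adjusted p = 0.0426), and the remaining 2 gave -0.17 and 0.05 without passing. Cacna1e (the R-type channel Cav2.3) and Cacna1b (the N-type channel Cav2.2) passed with small differences, -0.23 ± 0.06 (adjusted p = 0.00216) and -0.13 ± 0.05 (adjusted p = 0.0474). Cacna1e was measured at 10.63, 10.80, 10.78, 10.74 and 10.55 in striatum and at 10.81, 10.92 and 11.09 (lowest, median, highest) in hippocampus. The nearest arrays of the 2 regions almost touched. Cacna1e also passed in KO vehicle arrays (-0.20, adjusted p = 0.0142), but not without the doubted ones (-0.17, adjusted p = 0.156). The L-type genes behaved in different ways. Cacna1d (Cav1.3) passed as lower in WT inhibitor and KO vehicle arrays, with values from -0.25 to -0.14 over the 4 pairs. With the doubted arrays left out it was -0.34 (adjusted p = 0.00676) in WT inhibitor arrays and no longer passed in KO vehicle arrays (-0.23, adjusted p = 0.105). Cacna1c (Cav1.2) passed in none, with values from -0.18 to 0.15. Cacna1h, for the T-type channel Cav3.2, also passed in no pair.

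**Figure D2:**
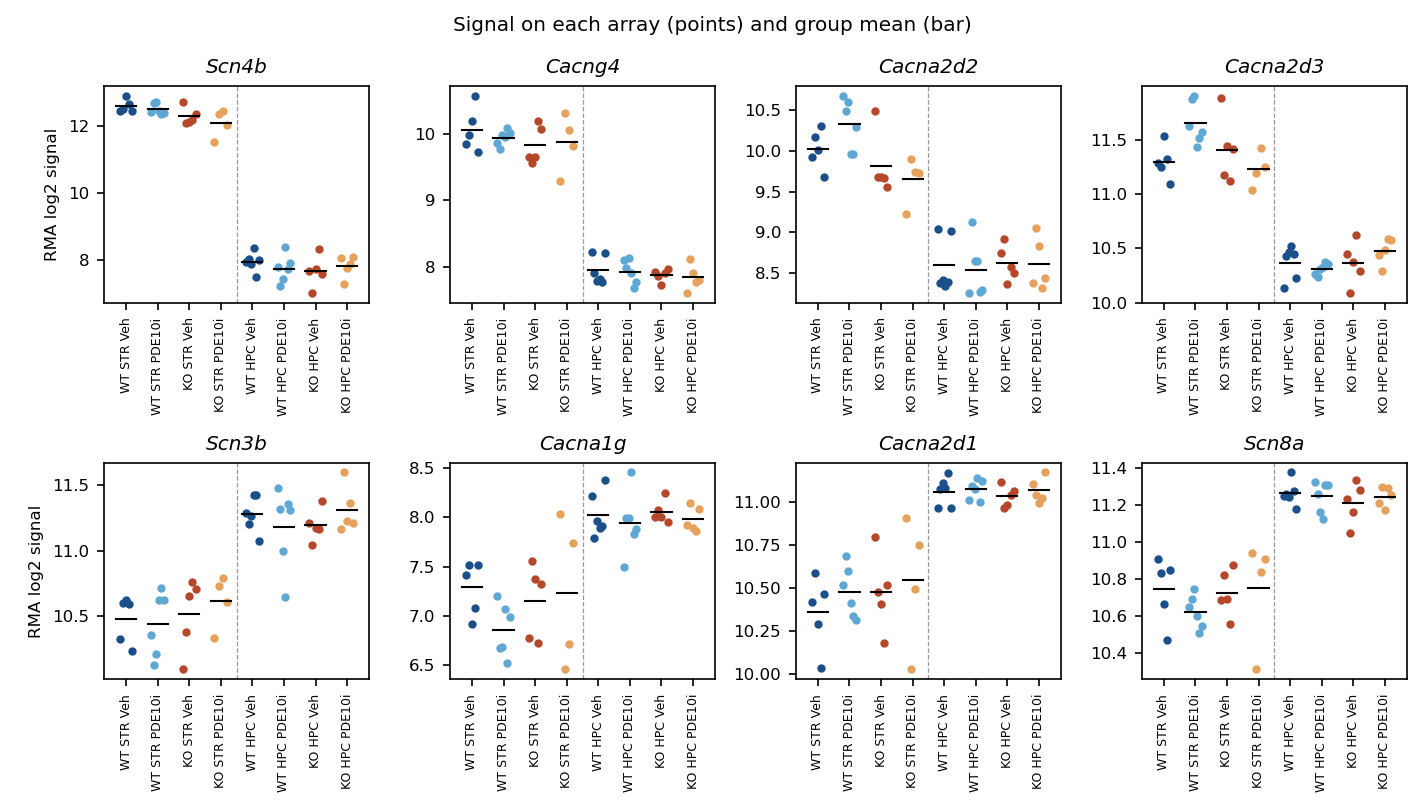
RMA log2 signal of 8 channel genes on every array (points) with the group mean (bar), for the 4 striatal groups left of the dashed line and the 4 hippocampal groups right of it; each panel has its own vertical scale. The upper 4 genes are high in striatum in all groups, the lower 4 are low, and the KO vehicle replicate at 10.49 for Cacna2d2 stands above the other 4 arrays of its group.

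The alpha2delta genes split by region. Cacna2d2 and Cacna2d3 were higher in striatum, Cacna2d1 was lower, and the dim Cacna2d4 passed in 1 pair only. Cacna2d1 and Cacna2d2 encode the subunits that bind gabapentin and pregabalin, which the Cacna2d3 protein does not. The WT vehicle signals of Cacna2d2 were 9.92, 10.17, 10.01, 10.30 and 9.67 in striatum and 8.35 to 9.04 in hippocampus (median 8.4), a difference of 1.42 ± 0.18 (2.68-fold, adjusted p = 3.66e-08). Over the 4 pairs it ranged from 1.04 to 1.79. Of its other probe sets, both dim, the second gave 0.35 ± 0.09 (adjusted p = 0.002) and the third 0.01 ± 0.06.

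Cacna2d3 was measured by a single probe set, at 11.29, 11.25, 11.54, 11.32 and 11.09 in striatum and 10.13 to 10.52 in hippocampus (median 10.44). No arrays overlapped, and the difference was 0.93 ± 0.10 (1.90-fold, adjusted p = 2.92e-09), with 0.75 to 1.34 over the 4 pairs. Cacna2d1 read 10.42, 10.59, 10.29, 10.03 and 10.47 in striatum against 10.96 to 11.17 in hippocampus (median 11.08). It was lower on every striatal array, by -0.70 ± 0.10 (1.63-fold, adjusted p = 6.56e-07). Of its other 4 probe sets, 1 passed at -1.60 ± 0.33 and 3 did not, at -0.30, -0.08 and -0.01.

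The start regions of these 3 genes are shown because members of 1 subunit family were enriched in opposite regions. The RefSeq windows (GRCm38.p6) are chr9:107399630-107399929 (plus strand), chr14:29721815-29722114 (minus strand) and chr5:15934441-15934740 (plus strand), each printed along its gene's strand. Capitals mark GC boxes (GGGCGG, or CCGCCC where it lies on the other strand), which the factor Sp1 is known to bind, and in Cacna2d1 also a CRE half-site (TGACG).

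Cacna2d2: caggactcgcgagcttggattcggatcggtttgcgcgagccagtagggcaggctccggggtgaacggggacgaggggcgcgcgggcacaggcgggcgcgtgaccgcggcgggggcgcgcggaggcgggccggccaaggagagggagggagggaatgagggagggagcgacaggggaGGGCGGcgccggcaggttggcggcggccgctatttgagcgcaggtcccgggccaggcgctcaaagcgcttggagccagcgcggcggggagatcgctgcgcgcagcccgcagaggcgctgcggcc
Cacna2d3: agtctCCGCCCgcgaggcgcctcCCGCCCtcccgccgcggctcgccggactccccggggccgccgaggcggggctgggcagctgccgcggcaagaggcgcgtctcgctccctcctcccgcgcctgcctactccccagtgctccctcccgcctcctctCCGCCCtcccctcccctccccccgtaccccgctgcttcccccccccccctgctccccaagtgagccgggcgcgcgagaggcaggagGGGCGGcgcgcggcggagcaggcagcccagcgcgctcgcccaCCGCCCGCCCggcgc
Cacna2d1: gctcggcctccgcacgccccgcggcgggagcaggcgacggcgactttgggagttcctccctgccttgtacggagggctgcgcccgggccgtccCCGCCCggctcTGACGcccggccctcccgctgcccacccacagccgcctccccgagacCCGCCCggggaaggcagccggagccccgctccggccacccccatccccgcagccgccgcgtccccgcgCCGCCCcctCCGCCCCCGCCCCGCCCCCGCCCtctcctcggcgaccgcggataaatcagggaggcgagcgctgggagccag

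All 3 windows are rich in G and C, at 75.7%, 81.3% and 80.0%, with 43, 41 and 42 CpG dinucleotides. Cacna2d2 holds 1 GC box, Cacna2d3 holds 6 and Cacna2d1 holds 7, some of which overlap. Of the 35 genes 27 had a RefSeq window in the table, 37 windows in all. On either strand the full CRE (TGACGTCA), to which the cAMP-responsive factor CREB binds, was in 0 of the 37 windows and in 1.79% of all windows. The half-site TGACG, which every full CRE contains, was in 5 of the 37 (13.5%) and in 20.8% of all windows. The GC box was in 37.8% against 35.7%, and TATAAA in 5.41% against 13.6%. GCGTGGGCG, the EGR site, was in 1 window (2.70% against 0.612%), and the E-box CACGTG in 0 (7.15% of all). These are matches of letters in a short window and do not describe binding.

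Of the 3 calcium channel beta genes, Cacnb4 and Cacnb1 were higher in striatum in all 4 pairs with all arrays. Cacnb4, the beta gene mutated in the lethargic mouse, gave 11.30, 11.20, 11.20, 11.42 and 11.18 in WT vehicle striatum and 10.50, 10.62 and 10.72 (lowest, median, highest) in hippocampus. The groups did not overlap, at 0.64 ± 0.10 (1.56-fold, adjusted p = 1.58e-06), and its other 2 probe sets gave 0.65 and 1.02. Cacnb1 differed by 0.42 ± 0.09 (adjusted p = 0.000267) with overlapping arrays. Its difference in WT inhibitor arrays, 0.40 (adjusted p = 0.00021), was 0.29 without the doubted arrays and did not pass (adjusted p = 0.0534). Cacnb2 passed only in WT inhibitor arrays, at 0.39 ± 0.15 (adjusted p = 0.0437), or 0.69 ± 0.17 (adjusted p = 0.00239) without the doubted arrays, and gave -0.05 ± 0.16 in WT vehicle arrays.

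Among the TARP genes Cacng4 was the clearest. Its 5 striatal WT vehicle arrays read 9.85, 9.99, 10.20, 10.57 and 9.72, and the hippocampal arrays 7.77 to 8.22 (median 7.86). The nearest arrays of the 2 regions lay over 1 log2 unit apart. The difference was 2.12 ± 0.14 (4.33-fold, adjusted p = 2.25e-15), it stayed within 1.95 and 2.12 over the 4 pairs, and the second Cacng4 probe set gave 1.5 ± 0.13. Cacng8, which encodes the principal hippocampal TARP, read 6.96, 7.12, 7.15, 7.08 and 6.93 in striatum and 7.28 to 7.99 (median 7.62) in hippocampus. This is a difference of -0.55 ± 0.11 (1.47-fold lower, adjusted p = 9.62e-05) without overlap. Its probe sets disagreed, however: the dimmer one gave 0.27 ± 0.10 (adjusted p = 0.0407), and averaged over both the gene did not pass (-0.14, adjusted p = 0.206).

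Cacng7 was slightly higher (0.26 ± 0.10, adjusted p = 0.0368). It passed in WT inhibitor arrays too (0.25, adjusted p = 0.0355), though not without the doubted ones (0.29, adjusted p = 0.0913). Cacng2, the gene of stargazin, did not pass in any pair (0.14 ± 0.08 in WT vehicle arrays), although another of its 3 probe sets gave 0.32 ± 0.09 (adjusted p = 0.0041). Cacng3 passed in KO vehicle arrays only (0.51, adjusted p = 0.0466), and without the doubted arrays it did not (0.54, adjusted p = 0.126). Of the dim gamma genes, Cacng1 read 4.34 to 4.80 in striatum and 4.13 to 4.32 in hippocampus, 0.46 ± 0.08 (adjusted p = 1.71e-05), and Cacng6 read 4.01 to 4.36 and 4.33 to 4.61, -0.30 ± 0.10 (adjusted p = 0.0143). Cacng6 also passed in WT inhibitor arrays (-0.26, adjusted p = 0.0267), but lost that call without the doubted ones (-0.25, adjusted p = 0.134). In WT vehicle arrays 8 of the 35 genes were higher in striatum without overlap and 7 lower, against 9.28% and 11.9% of all genes.

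Other genes of sodium and calcium channel signalling were compared in the same way. Of 63 measured partner genes (channel-binding factors, scaffolds, calcium stores, pumps and exchangers), 17 were higher and 24 lower in WT vehicle striatum, where 15.9% and 17.9% of all genes were, with a median of -0.05 beside 0.03 over all genes. The smallest p-values among the higher ones belonged to Slc8a3, a sodium/calcium exchanger (1.40 ± 0.10, adjusted p = 5.8e-15), Akap5, a scaffold that holds kinases and phosphatases at L-type channels (1.53 ± 0.14), and Rem2, a small G protein that lowers calcium current (1.52 ± 0.16). Among the lower ones they belonged to Fgf13, whose product binds sodium channel tails (-1.11 ± 0.10, adjusted p = 6.91e-12), Slc24a3, a potassium-dependent sodium/calcium exchanger (-1.51 ± 0.16), and Ryr2, a calcium release channel of the endoplasmic reticulum (-1.36 ± 0.16).

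The next comparison asked whether the inhibitor changed channel genes in WT striatum, where its target is abundant. With all arrays, 0 of the 35 genes passed in limma, while 33 genes of 18193 did (0.181%, with 0.0989% higher and 0.0824% lower). No channel gene separated the 2 groups without overlap, as 0.973% of all genes did in the higher and 0.363% in the lower direction. At an unadjusted p under 0.05 there were 4 (2 higher, 2 lower), or 11.4% of the 35 genes, against 9.57% of all genes. The 95% confidence interval lay within 0.5 log2 units of 0 for 30 genes. The exceptions were Cacna1g, Cacna2d2, Cacna2d3, Cacnb2 and Cacng3. The 3 genes with the smallest p were Cacng2 (-0.26 ± 0.08, adjusted p = 0.218), Cacna2d3 (0.36 ± 0.12, adjusted p = 0.3) and the dim Cacna1s (0.19 ± 0.08, adjusted p = 0.405).

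Cacna2d3 read 11.63, 11.88, 11.91, 11.43, 11.52 and 11.57 on WT inhibitor replicates 10 to 15, against 11.09 to 11.54 on the 5 vehicle arrays. The lowest 2 inhibitor arrays lay inside the vehicle range. Both of these, and replicate 15, carry the doubted genotype. Without the doubted arrays the difference was 0.50 ± 0.11 (1.42-fold, adjusted p = 0.0180) with 3 inhibitor arrays against 5 vehicle arrays. Cacna2d2 then also passed, at 0.57 ± 0.14 (1.48-fold, adjusted p = 0.0295). On replicates 10 to 15 Cacna2d2 read 10.67, 10.49, 10.59, 9.96, 9.96 and 10.29 against 9.67 to 10.30 in vehicle arrays, so that the 3 undoubted inhibitor arrays stood above all vehicle arrays and the 3 doubted ones among them. How many of all genes separate in this way with 3 inhibitor arrays was not counted, so this does not set Cacna2d2 apart. With all arrays its difference was 0.31 ± 0.17 (adjusted p = 0.621). These 2 genes were 2 of the 35, at a share of 4.23% of all genes called without the doubted arrays. Cacng2 remained at -0.28 ± 0.09 without passing.

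**Figure D3:**
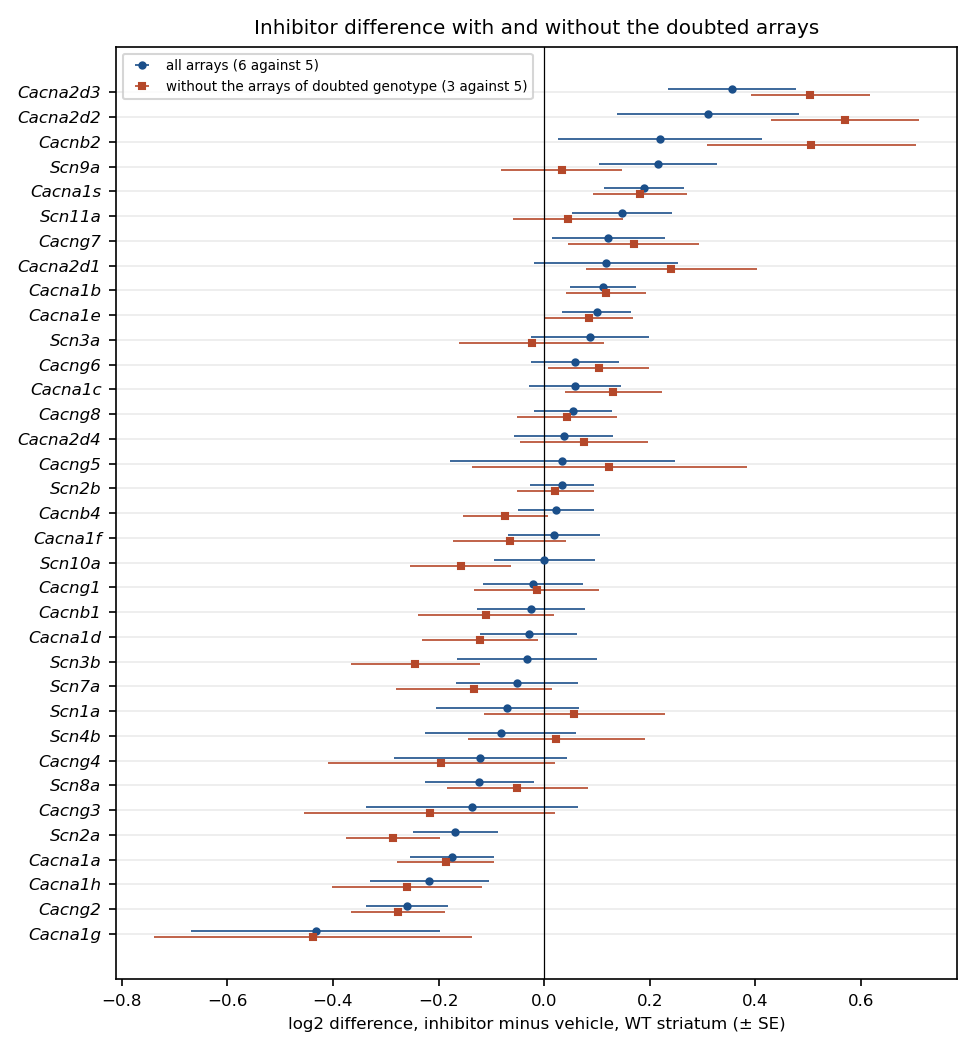
The inhibitor minus vehicle difference in WT striatum (log2, ± SE) is plotted for the 35 genes (rows) with all arrays (blue circles) and without the arrays of doubted genotype (red squares). Cacna2d2 and Cacna2d3 move from 0.31 to 0.57 and from 0.36 to 0.50 when the 3 doubted inhibitor arrays leave, and Cacna1g has the lowest value in both.

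Markers of other cells were set beside these values. The mean signal of glutamatergic neuron markers over 12 genes was 7.44 to 8.48 on the 6 WT inhibitor arrays (7.44, 7.94 and 7.68 on the 3 undoubted ones) and 7.51 to 8.79 on the 5 WT vehicle arrays. Of the 12 genes 4 were higher and 0 passed, with a median difference of -0.39. No gene of the other marker lists passed either. Their medians were -0.53 for choroid plexus (2 of 8 above 0), 0.22 for endothelial cells (8 of 9), 0.13 for striatal projection neurons (10 of 12), -0.11 for astrocytes (2 of 10) and -0.04 for oligodendrocytes (1 of 9). For interneurons (3 of 11), oligodendrocyte precursors (4 of 6), microglia (6 of 10) and thalamic neurons (3 of 7) they lay between -0.04 and 0.04. By the glutamatergic marker mean, all hippocampal arrays lay between 9.27 and 9.88, above every striatal array. With this glutamatergic mean as a covariate, chosen after seeing the data, 0 of the 35 genes passed with all arrays. Cacna2d3 was then 0.27 ± 0.13 (adjusted p = 0.444), Cacna2d2 0.08 ± 0.16 and Cacna1g -0.10 ± 0.21, compared with -0.43 for Cacna1g before. Without the doubted arrays and with the covariate, 14.4% of all genes passed and 6 of the 35 did: Cacna2d3 (0.46 ± 0.13, adjusted p = 0.0295), Cacna2d1 (0.57 ± 0.09), Cacnb2 (0.81 ± 0.17), Cacna1h (-0.47 ± 0.13), Cacng4 (-0.58 ± 0.16) and Scn3b (-0.39 ± 0.12). Cacna2d2 was at 0.34 (adjusted p = 0.0612). Of these genes Cacna2d3 alone passed both without the doubted arrays and with the covariate added. By marker mean, only WT vehicle replicate 4 (7.51) lay among the 3 undoubted inhibitor arrays. The other vehicle arrays read 8.16 to 8.79, so the adjusted differences lean on the slope of the covariate.

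Across the 20 striatal arrays the relation of each channel gene to that marker mean was computed, 35 relations in all, with 100000 permutations each. Arrays were permuted across groups, so the permutation p also takes in differences between groups, and r within groups has no p. In 10 of the 35 relations Pearson's r passed an adjusted p of 0.05, 5 positive and 5 negative. The relation was not computed over all genes, so this count does not set the channel genes apart. Scn8a had r = 0.75 (permutation p = 0.00017, adjusted 0.00298) and Spearman's rho = 0.79 (adjusted 0.0021). Without the 2 arrays farthest from the median (WT vehicle replicate 4 and WT inhibitor replicate 10) r was 0.75, and within groups 0.76. The other positive ones were Cacna1a (0.74), Cacna1g (0.67), Cacng3 (0.63) and Cacna1d (0.61). All of these except Cacng3 were lower in striatum in at least 1 pair.

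On the negative side Cacna2d2 had r = -0.75 (permutation p = 0.00015, adjusted 0.00298) and rho = -0.77 (adjusted 0.0021), with r = -0.69 without the 2 arrays and -0.61 within groups. Cacna2d3 had r = -0.55 (permutation p = 0.0123, adjusted 0.0478) and rho = -0.67 (adjusted 0.00952), with -0.62 without the 2 arrays and -0.32 within groups. Cacng4 (-0.56), Cacna2d4 (-0.55) and Scn4b (-0.54) were the remaining negative ones, and for these 3 rho did not pass (adjusted 0.0802 to 0.0997). The 4 negative genes above the median signal were all higher in striatum in every pair. The part of tissue makeup in the inhibitor values was not tested beyond the covariate.

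**Figure D4:**
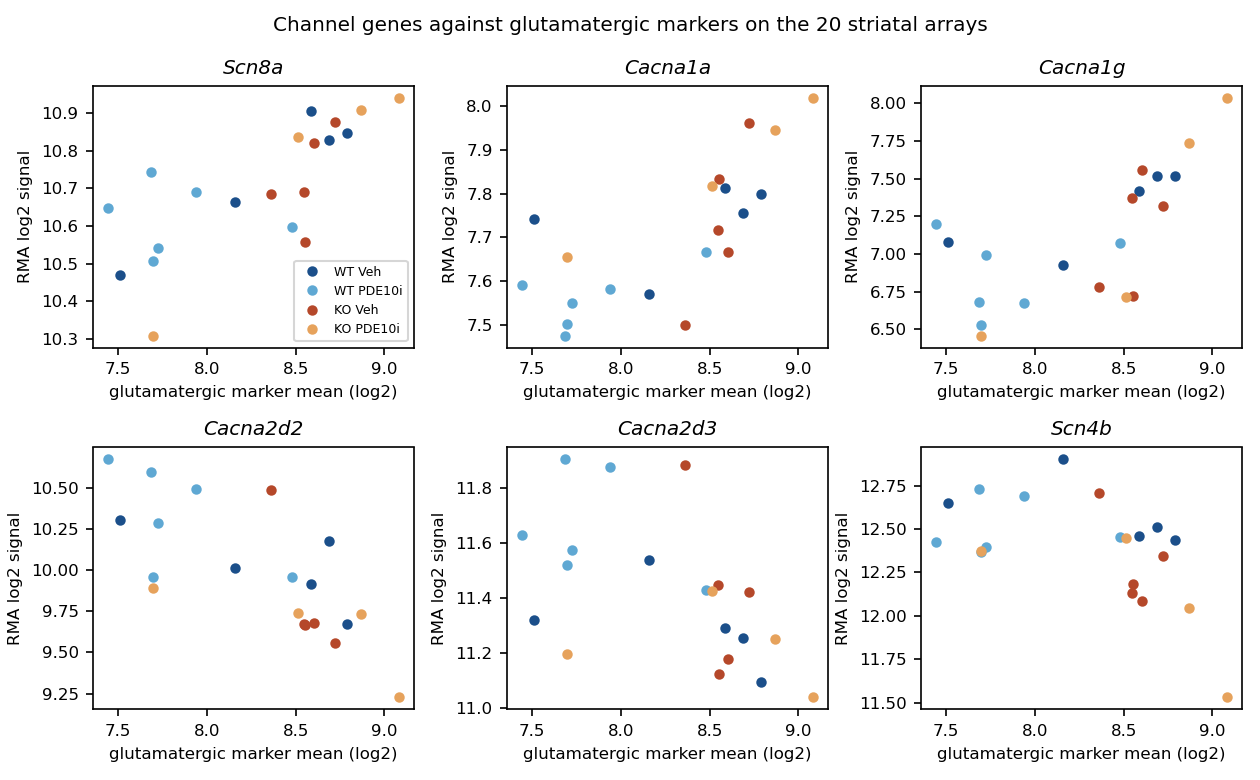
RMA log2 signal of 6 channel genes on the 20 striatal arrays against the mean log2 signal of 12 glutamatergic neuron markers on the same array, coloured by group. Scn8a, Cacna1a and Cacna1g rise with the marker mean, Cacna2d2, Cacna2d3 and Scn4b fall, and 5 of the 6 WT inhibitor arrays lie at the low end between 7.44 and 7.94.

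The label for absence of the enzyme was compared next. In striatum under vehicle 0 of the 35 genes passed between KO and WT arrays, where 0.137% of all genes did (0.0605% higher, 0.077% lower). None separated the groups without overlap, where 0.533% of all genes did so as higher and 0.704% as lower. At an unadjusted p under 0.05 there were 2, both lower, against 5.94% of all genes. They were Cacna1h (-0.31 ± 0.12, adjusted p = 0.612) and Cacng2 (-0.19 ± 0.08, adjusted p = 0.736). Cacna1h lies on chromosome 17, as Pde10a does. It read 8.81, 8.59, 8.99, 8.73 and 9.01 in KO vehicle and 9.17, 9.08, 9.15, 9.39 and 8.90 in WT vehicle arrays, which overlap. Scn4b followed at -0.30 ± 0.15 (adjusted p = 0.861). It read 12.71 on the doubted KO vehicle replicate 25 and 12.09 to 12.35 on the other 4, below the WT vehicle range of 12.44 to 12.90. How many of all genes separate in this way with replicate 25 set aside was not counted, so this does not set Scn4b apart. Without the doubted arrays Scn4b was at -0.41 ± 0.15 (adjusted p = 0.462) and Cacna1h at -0.31 ± 0.13 (adjusted p = 0.574), and again none of the 35 genes passed (0.797% of all genes).

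For the inhibitor in KO striatum 0 of the 18193 genes passed (0%), and of the 35 genes 1 had an unadjusted p under 0.05 (1.41% of all genes). This was the dim Scn10a (0.22 ± 0.11), followed by Cacna1d (0.15 ± 0.10) and Cacna1a (0.12 ± 0.09), each with an adjusted p of 1. With the doubted arrays left out, again 0 passed (0%). Whether the inhibitor difference itself depended on genotype was tested as an interaction, and 0 of the 35 genes passed, as did 0 of all genes (0%). At an unadjusted p under 0.05 there were 4, against 7.4% of all genes. The smallest p-values were those of Cacng2 (-0.36 ± 0.12, adjusted p = 0.514), Cacna2d3 (0.54 ± 0.18, adjusted p = 0.535) and Cacna1a (-0.30 ± 0.12, adjusted p = 0.582). For Cacna2d3 the inhibitor difference was 0.36 ± 0.12 in WT and -0.18 in KO arrays, and for Cacna2d2 0.31 and -0.17. Without the doubted arrays these interactions were 0.57 ± 0.16 (adjusted p = 0.123) and 0.57 ± 0.19 (adjusted p = 0.246), while 0.868% of all genes passed. The difference between genotypes is therefore not shown for either gene, and in this test 15 of the 35 intervals reached beyond 0.5 log2 units.

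**Figure D5:**
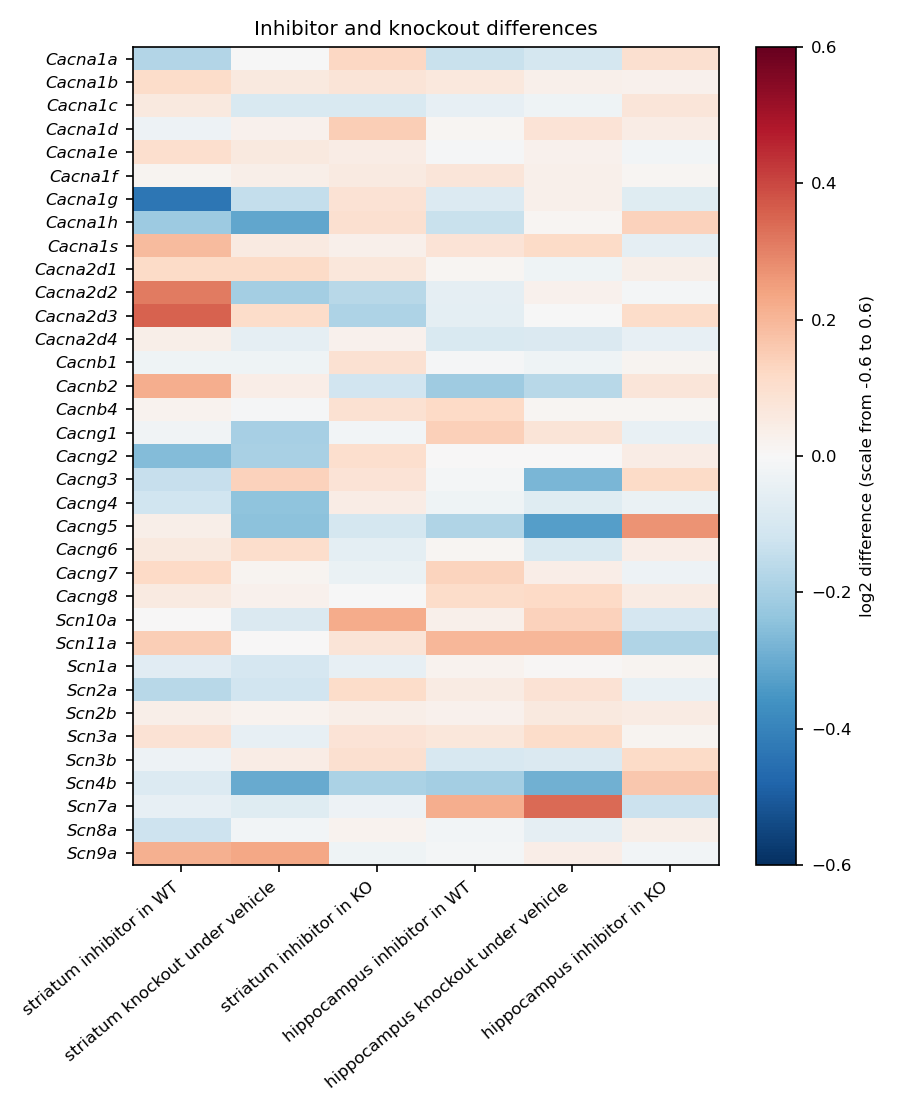
The log2 difference of the 35 channel genes (rows) for the inhibitor and the knockout label in both regions (columns) is drawn on a colour scale from -0.6 (blue) to 0.6 (red). No cell passed the test, and the strongest colours are Cacna1g at -0.43 and Cacna2d3 at 0.36, both for the inhibitor in WT striatum.

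In hippocampus no gene of the array passed in any comparison of treatment or genotype (0% each). For the inhibitor in WT mice 3 of the 35 genes had an unadjusted p under 0.05, against 10.7% of all genes. None separated the groups without overlap, where 0.286% of all genes did so as higher and 0.264% as lower. Cacnb2 was at -0.21 ± 0.10, and the dim Cacng1 and Scn11a were at 0.14 ± 0.06 and 0.20 ± 0.09 (adjusted p = 0.438 to 0.461). Here 33 of the 35 intervals lay within 0.5 log2 units, all but Cacng5 and Scn4b. For the KO label under vehicle there was 1 such gene (6.62% of all genes), the dim Scn7a at 0.34 ± 0.13 (adjusted p = 0.636), and the next were Scn11a (0.20 ± 0.10) and Cacng3 (-0.27 ± 0.15). For the inhibitor in KO mice there were 0 (3.82% of all genes), the smallest p-values being those of Scn11a (-0.18 ± 0.10), Cacna2d3 (0.11 ± 0.08) and Scn2b (0.05 ± 0.04). Scn11a was the 1 gene of the 35 whose arrays did not overlap, at 4.80 to 5.03 under vehicle and 4.59 to 4.78 under inhibitor, where 0.22% of all genes were lower without overlap. The interaction had 1 (11.8% of all genes), Scn11a at 0.38 ± 0.14 (adjusted p = 0.353), followed by Cacng1 (0.18 ± 0.09) and Scn7a (0.35 ± 0.18). Scn7a, Scn11a and Cacng1 are among the 9 dim genes, whose signals ran from 3.39 to 5.70 over all arrays. Again 0 of the 35 genes passed in any of these comparisons without the doubted arrays, and 0.0824% of all genes did for the KO label.

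Whether the inhibitor acted differently in the 2 regions of WT mice was tested over all 42 arrays. None of the 35 genes passed (0.214% of all genes), and 3 had an unadjusted p under 0.05 (12.7% of all genes). They were Cacna2d3 (0.41 ± 0.14, adjusted p = 0.227), Cacng2 (-0.26 ± 0.11) and Scn2a (-0.21 ± 0.10). Cacna2d3 read 10.24 to 10.38 on the 6 WT inhibitor arrays of hippocampus and 10.13 to 10.52 on the vehicle arrays, a difference of -0.06 ± 0.08. Without the doubted arrays Cacna2d3 passed, at 0.58 ± 0.14 (adjusted p = 0.0132), when 4.31% of all genes did, and Cacnb2 was next at 0.74 ± 0.22 (adjusted p = 0.0526). For the KO label 0 of the 35 genes differed between regions (0.0495% of all genes), and 2 had an unadjusted p under 0.05 (5.29% of all genes). These were the dim Cacng1 (-0.28 ± 0.12) and Scn7a (-0.41 ± 0.18), followed by Scn2a (-0.20 ± 0.10). Leaving out the doubted arrays again gave 0 of the 35 genes, and 0.187% of all genes.

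With all arrays, none of the 63 partner genes passed in any of the within-region comparisons or interactions. Of all genes 0% to 0.214% did, so the partners do not stand apart. Partner genes were not counted without the doubted arrays. The median inhibitor difference in WT striatum was -0.03 for the partners, 0.02 for the 35 channel genes and -0.00045 over all genes. By subunit class, the alpha2delta genes had the highest median in that comparison (0.21 over 4 genes, from 0.04 to 0.36), and the alpha1 genes the widest range (-0.43 to 0.19 over 9 genes).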

How the data were processed

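Total RNA of microdissected, snap-frozen tissue was labelled with biotin and hybridised to 1-colour Affymetrix arrays, per the labels' protocols. The authors deposited 1 table of log2 values for 45101 probe sets, and per the submitters' processing notes these came from RMA. That method equalises the distribution of values between arrays, so a shift in total RNA cannot be seen. Values ran from 2.55 to 15.1 and array medians from 6.05 to 6.12. The number of arrays limits the precision. No 2 arrays were identical (closest pair r = 0.998, SD of the difference 0.151).

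After removal of 64 control probe sets, 34945 probe sets listed a single gene, 932 listed several and 9160 none. Each of 18193 genes was represented by its probe set with the highest mean, and 18031 genes, all 35 members included, were matched to the RefSeq table. Groups were compared with limma 3.58.1 in R 4.3.3 (lmFit, eBayes, two-sided, Benjamini-Hochberg over all genes, threshold 0.05). Comparisons within a region used its 4 groups and those between regions all 8. Errors are SE unless stated, and folds are 2 to the log2 difference. Fits were tested on simulated data.

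The members, the partner list and the marker lists were chosen with earlier results of these data known. Text values are given for members past the threshold within a region, for the 8 largest rises and falls between regions in WT vehicle arrays, for the 3 smallest p-values where none passed, and for the 3 partners with the smallest p in each direction. Other genes named in the text were singled out after their values were seen. The chromosome 17 score excludes Pde10a and the members. The labels do not say whether equal replicate numbers in the 2 regions mark the same animal. Of 20 such pairs, 6 had deviations from the group mean that correlated above 0.1 (r from -0.38 to 0.31), which cannot decide it. The main fits treated all arrays as independent, and the replicate block was run as an alternative. Alternatives were the mean of a gene's probe sets, a filter on dim genes, another normalization, fits of the compared groups alone, array weights, a Gapdh 3-prime minus 5-prime covariate, the replicate block, leaving out each array, leaving out the doubted arrays, and the glutamatergic covariate, which was added after seeing the data.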

Additional observations from a re-analysis of the deposited data

Results flagged for a closer look

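In 8 of 208 groups of arrays tested, over 26 channel genes named in the text, 1 array stood apart from the others of its group by Dixon's criterion. Chance flags about 1 in 20 groups. Cacng3 stood apart in 3 groups. It read 8.41 on KO striatum inhibitor replicate 35, where the other arrays read 9.20 to 9.27. It read 9.38 on WT hippocampus inhibitor replicate 13, against 8.37 to 8.64, and 8.22 on WT hippocampus vehicle replicate 1, against 8.69 to 8.91. KO striatum inhibitor replicate 35 was also low for Scn8a, at 10.31 against 10.84 to 10.94. Its glutamatergic marker mean was 7.70 where the other 3 arrays had 8.52 to 9.08. Its Gapdh 3-prime minus 5-prime difference was 0.67, against 0.14 to 0.30 on those 3 arrays. The highest such difference of all arrays, 1.05, was on WT striatum vehicle replicate 4, where the rest of its group had 0.18 to 0.28. WT hippocampus inhibitor replicate 13 was also low for Cacna1h, at 7.86 against 8.79 to 9.33. Cacna2d2 read 10.49 on KO striatum vehicle replicate 25, 1 of the doubted arrays, against 9.56 to 9.68 on the rest. Cacnb2 read 8.77 on KO hippocampus inhibitor replicate 37, against 8.59 to 8.63. Cacng1, a dim gene, read 4.34 on WT striatum vehicle replicate 5, against 4.67 to 4.80.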

How the results depend on the processing

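Between regions, the count of channel genes past the threshold stayed within 1.5 times under every alternative run. Leaving out each array in turn gave 17 to 20 in WT vehicle, 18 to 21 in WT inhibitor, 15 to 18 in KO vehicle and 13 to 17 in KO inhibitor arrays. Over all genes these fits gave 4837 to 6754, 6061 to 6362, 4393 to 4796 and 3594 to 5042, in the same order. The other alternatives gave 4903 to 6681, 5294 to 7389, 3661 to 5444 and 3842 to 5252 of all genes tested. With the replicate block the counts were 17, 21, 18 and 15, and 0 in both tests of the difference between regions; the block changed no direction of a named gene. Within regions and in the interactions the count was 0 in each fit with 1 array left out. It moved only for the inhibitor in WT striatum, to 2 without the doubted arrays and 6 without them and with the glutamatergic covariate, and for its difference between regions, to 1 (Cacna2d3) with array weights and 1 without the doubted arrays. Among named genes 2 small differences reversed with the mean of all probe sets: Scn2b for the inhibitor in KO hippocampus, from 0.05 to -0.055 (adjusted p = 0.997), and Scn2a for the KO label between regions, from -0.20 to 0.028 (adjusted p = 0.987). Over all alternatives the regional differences of the 16 genes with the largest rises and falls lost a call 20 times (Cacna1e 6, Cacng6 6, Cacng8 4, Cacna1g 3, Cacna1a 1) and gained one 6 times (Cacna1e 3, Cacng1 3). Over all 35 genes, leaving out the doubted arrays lost 7 regional calls and gained 1. The cause was not tested. The counts over all genes moved more within regions and in the interactions. For the inhibitor in WT striatum 33 genes became 4 to 73 with 1 array left out and 9 to 2616 otherwise, and for the KO label there 25 became 8 to 82 and 9 to 175. For the inhibitor in WT hippocampus 0 became up to 14 and 154, for the difference of the inhibitor between regions 39 became 19 to 154 and 23 to 785, and for that of the KO label 9 became 2 to 28 and 0 to 34. For the 2 interactions within a region, a fit of the compared groups alone is the same fit. The compound, its dose and the time are unknown, groups hold 4 to 6 arrays, 8 arrays carry doubted genotype labels, and dim genes lie near background.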
